A study of Mus musculus with 5 samples.

Results

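The complement genes described here are 9 of the 32285 genes in the count tables: the C1q chains C1qa, C1qb and C1qc, the components C3, C4b and Cfb, the stabiliser Cfp, and the receptors C3ar1 and C5ar1. They were taken by symbol. They were chosen by their measured UMI levels per library and cell class, among them the higher Cfb of progenitors in the Decoy libraries. Single-cell RNA was counted as unique molecular identifiers (UMIs, 1 per captured transcript) in 5 libraries of 10x Genomics 3' chemistry. C57BL/6 mice had received GFP-marked CMM leukaemia cells, a model of acute myeloid leukaemia with inv(16), by vein, and treatment began at about 1% GFP-positive cells in blood. The PBS group (1 library) received buffer and the Decoy group (4 libraries, numbered 2, 3, 5 and 6) received CpG-STAT3dODN, a STAT3 decoy oligonucleotide joined to a CpG sequence that is a ligand of TLR9. Both were given 3 times into a vein on alternate days, and cells positive for GFP and c-Kit were sorted from the spleen. All 5 libraries therefore carry the same leukaemia, host strain, route and sort. The labels do not say whether a library is 1 mouse or a pool, nor give ages, so p-values measure the spread between libraries only, and that spread comes from the Decoy group because PBS has 1 library.

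Complement is a cascade of plasma and tissue proteins that marks targets for uptake or lysis. C1q, built from the A, B and C chains, opens the classical pathway and is made in large amounts by tissue macrophages. C4b (the mouse C4 gene) is cut after C1q binds. C3 is the central component on which all pathways converge, factor B (Cfb) forms the convertase of the alternative pathway on C3, and properdin (Cfp) stabilises that convertase. C3ar1 and C5ar1 are the receptors of the fragments C3a and C5a on myeloid cells. Spleen macrophages of the red pulp are known for high C1q, and neutrophils and monocytes for C3, properdin and C5ar1.

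All 9 genes lie on the minus strand in mm10 with GENCODE vM21 annotation. The C1q genes are neighbours on chromosome 4: C1qb (ENSMUSG00000036905) at chr4:136880129-136886187, C1qc (ENSMUSG00000036896) at chr4:136889804-136893065 and C1qa (ENSMUSG00000036887) at chr4:136895917-136898803. C3 (ENSMUSG00000024164) is at chr17:57203970-57228136, Cfb (ENSMUSG00000090231) at chr17:34856374-34862518 and C4b (ENSMUSG00000073418) at chr17:34728380-34743882. Cfp (ENSMUSG00000001128) is at chrX:20925454-20931555, C3ar1 (ENSMUSG00000040552) at chr6:122847138-122856161 and C5ar1 (ENSMUSG00000049130) at chr7:16246743-16259540. Exons of Cfb overlap the same-strand model Gm20547, which the count tables do not list. C4b has a close copy, C4a, and 61 of 400 windows of 101 bases in the last 500 transcript bases of C4b (15.25%) also occur in C4a, so a small part of C4b reads could have been assigned to either copy or dropped.

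Promoter sequence from RefSeq (GRCm38.p6, which is mm10) was matched for 6 of the 9 genes, and those of C1qb and C3 are shown because these 2 genes had contrasting levels across cell classes, C1qb highest in macrophage-like cells and C3 in neutrophil-like cells. Each is the 250 bases before the transcript start, 5′ to 3′ on the gene's strand, at chr4:136886201-136886450 for C1qb and chr17:57228137-57228386 for C3. Capitals mark a match on either strand to the ETS-family core GGAAGT in C1qb and to the C/EBP motif TTGCNNAA in C3.
C1qb: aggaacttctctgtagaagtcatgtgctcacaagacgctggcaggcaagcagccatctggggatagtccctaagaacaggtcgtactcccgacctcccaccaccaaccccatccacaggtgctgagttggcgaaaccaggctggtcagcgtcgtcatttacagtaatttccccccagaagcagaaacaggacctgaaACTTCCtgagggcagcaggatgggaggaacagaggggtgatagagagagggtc
C3: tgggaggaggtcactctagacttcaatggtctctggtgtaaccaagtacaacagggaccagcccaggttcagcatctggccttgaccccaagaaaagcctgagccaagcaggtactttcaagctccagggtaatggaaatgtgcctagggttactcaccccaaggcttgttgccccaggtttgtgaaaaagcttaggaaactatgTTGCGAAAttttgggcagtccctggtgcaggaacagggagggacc
The ETS match begins 53 bases before the C1qb start and the C/EBP match 45 bases before the C3 start. GGAAGT was found in 19.7% of 32851 RefSeq promoter windows and TTGCNNAA in 9.56%. The STAT-type motif TTCNNNGAA (7.02% of all windows) and the interferon-stimulated response element (2.98%) were not found in any of the 6 matched windows. A match is a description of letters, and the promoters of C1qa, Cfb and C4b were not analysed here.

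After filters and removal of cells marked as doublets, 16034 PBS cells and 1933 to 6250 Decoy cells per library were kept. Medians were 30705.5 UMIs per cell in PBS and 14005 to 36505 in Decoy. Cells were clustered without any complement gene and named from marker lists, so a class is called "-like". The mast cell and basophil-like class held 92.6% of PBS cells but 84.3%, 19.8%, 0.0277% and 44.2% of the cells of Decoy 2, 3, 5 and 6. Decoy 2 therefore stood nearest to PBS in composition, and Decoy 5 had 1 cell of that class. The class passed 6 of its 10 listed markers (Cpa3, Fcer1a, Ms4a2, Gata2, Hdc and Il1rl1), and its name says no more than this. GFP marked the leukaemia cells, and which cells of the class were leukaemic and which were of the host was not tested. The macrophage-like class held 0.437% of cells in PBS (70 cells) and 3.14% to 27.2% in Decoy. Levels below are in CPM, a gene's UMIs scaled to the total UMIs of its class in that library. In the macrophage-like class the 13 macrophage markers, all detected in every library, summed to 1871 CPM in PBS and 3324 to 5293 in Decoy, and erythroid markers to 15112 in PBS and 2342 to 7059 in Decoy. Kit, the gene of the sorted surface protein, was at 43.4 to 51.8 CPM in mast cell and basophil-like cells and at 0.791 to 10.3 in the macrophage-like class, 7.43 to 15.5 in the granulocyte-monocyte progenitor-like class (progenitor-like below) and 1.64 to 15.7 in the neutrophil-like class. The sort was on Kit protein. These 3 classes carried less Kit RNA than the mast cell and basophil-like class, and the reason was not tested. Libraries shared 1 to 37 cell barcodes with one another.

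C1q was a feature of macrophage-like cells in all 5 libraries. C1qa was at 1534 CPM in PBS and at 1403, 1798, 1588 and 1681 in Decoy 2, 3, 5 and 6. C1qb levels were 2520 in PBS and 2235, 2804, 2871 and 2781 in Decoy, and C1qc at 1183 in PBS and 1362, 1853, 1636 and 1767 in Decoy. PBS lay within the Decoy range for C1qa and C1qb and below every Decoy library for C1qc. Conventional dendritic-like cells had C1qb at 193 to 316 in 3 Decoy libraries and 14.9 in PBS. The plasma cell-like class, with 6 cells in PBS, had in Decoy C1qb at 52.2 to 765 and Cfb at 9.69 to 12.3 UMIs per 100 C1q UMIs, next to 9.73 to 12.4 in macrophage-like cells. In neutrophil-like cells C1qa was not seen in PBS (0 of 66 cells with a UMI, where a limit of 3 counts allows up to 4.55%) and was at 1.84 to 24.6 CPM in Decoy. Macrophage-like cells gave 64.4% of all C1qa UMIs in PBS and 86.3% to 90.1% in the Decoy libraries.

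**Figure D1:**
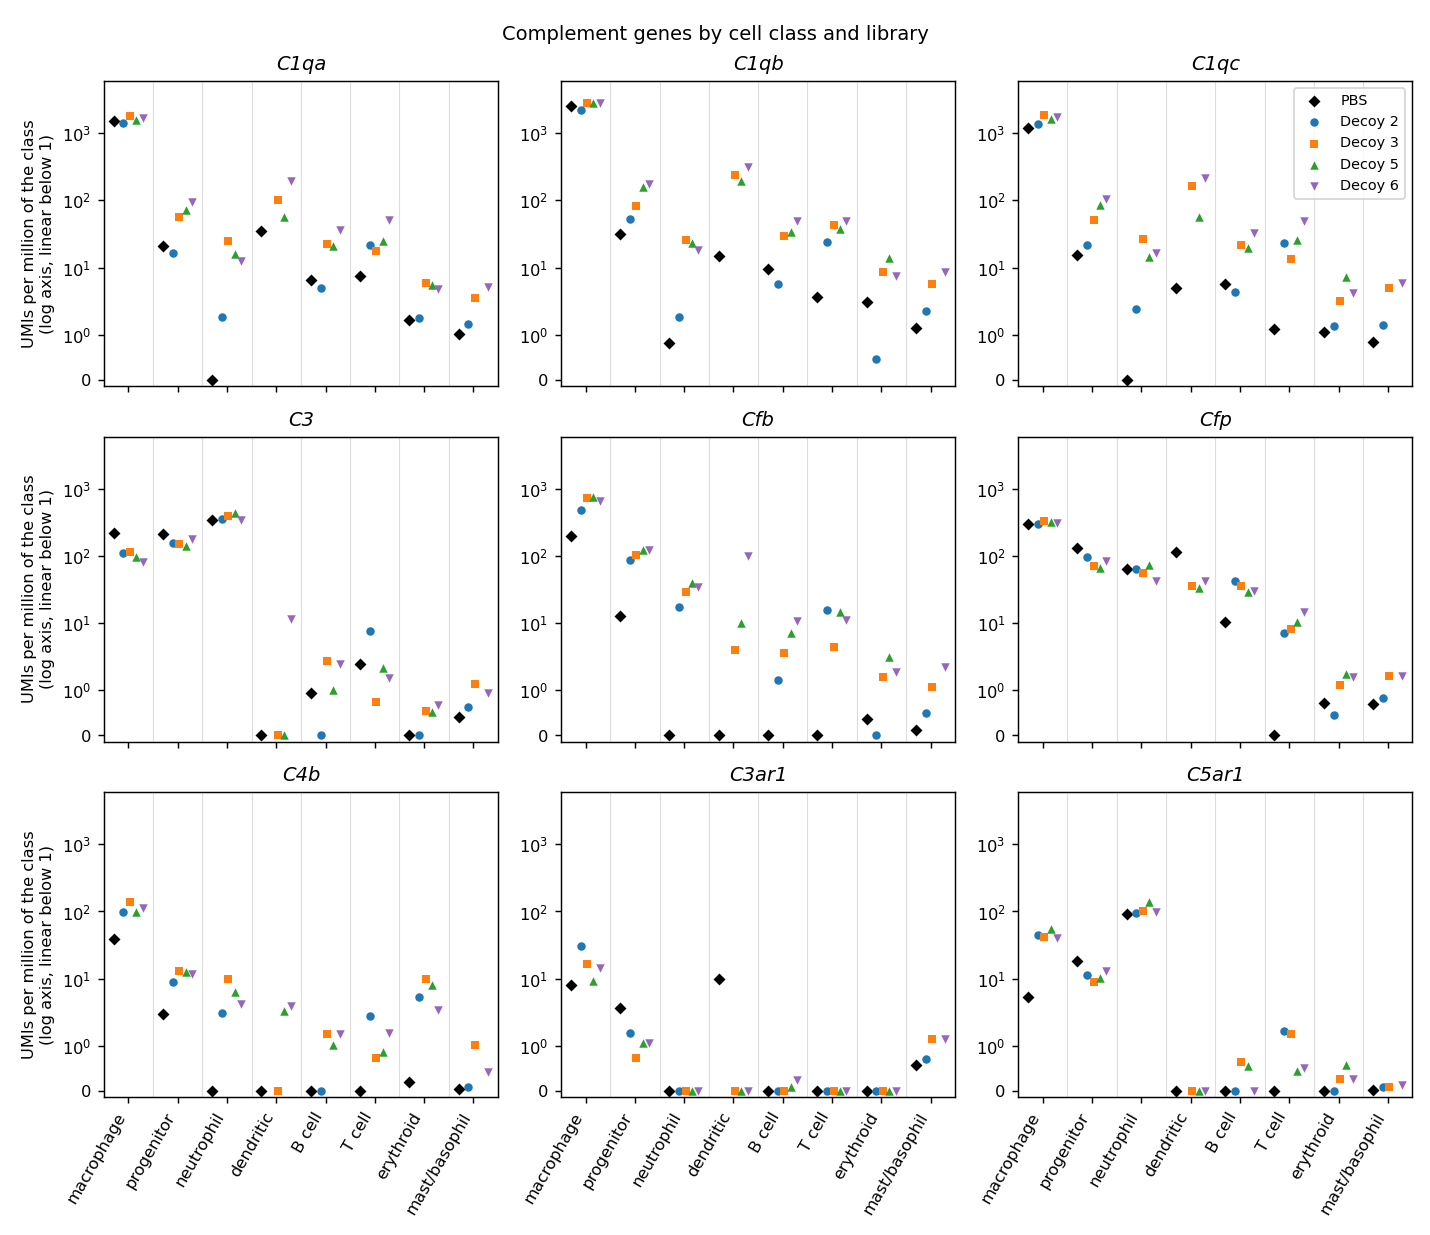
Level of each complement gene (vertical axis, CPM of the class, log axis that is linear below 1) in 8 cell classes (horizontal axis), with 1 point per library and no point where a library had under 20 cells of the class. C1q genes are above 1000 in macrophage-like cells only, C3 is above 80 in macrophage-like, progenitor-like and neutrophil-like cells, and C5ar1 is highest in neutrophil-like cells.

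The 3 chains did not keep 1 ratio in every kind of macrophage-like or monocyte-type cell. In the macrophage-like class there were 1.64 C1qb UMIs per C1qa UMI in PBS and 1.65 ± 0.11 in Decoy (SD, n = 4). Within that class a sub-cluster led by Ace and Nr4a1, genes of patrolling monocytes, had 4.50 to 10.2 C1qb UMIs per C1qa UMI in Decoy 3, 5 and 6. There C1qa was at 39.3, 42.6 and 51.2 CPM and C1qb at 399, 298 and 231. A sub-cluster of the progenitor-like class led by Fn1 and F13a1, genes of classical monocytes, had 7.78 to 23.3 C1qb UMIs per C1qa UMI in the 4 Decoy libraries, with C1qb at 27.4 to 102 and C1qa at 2.31 to 13.2 CPM. These ratios rested on few C1qa UMIs: 4, 4, 27 and 23 in Decoy 2, 3, 5 and 6. In the Ace and Nr4a1 sub-cluster there were 13, 15 and 8 in Decoy 3, 5 and 6. The sub-clusters led by Marco and Hpgd and by Cd72 and Itgax had ratios of 1.36 to 1.46 and 1.37 to 1.54 in Decoy, and the Marco one 1.09 in PBS. The sub-cluster led by Mmp8 and Vcan was uneven, from 0.625 to 10 over the Decoy libraries, on 5 to 134 C1qb UMIs. The Fn1 and Ace ranges over libraries did not overlap those of the Marco and Cd72 sub-clusters. Macrophage-like sub-clusters with Chil3 and Ly6c2 and with Saa3 and Cxcl10 lay between, at 1.68 to 2.51 and 1.55 to 2.20 in Decoy. The sub-clusters were drawn from the same cells, so the ratios are a description.

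**Figure D2:**
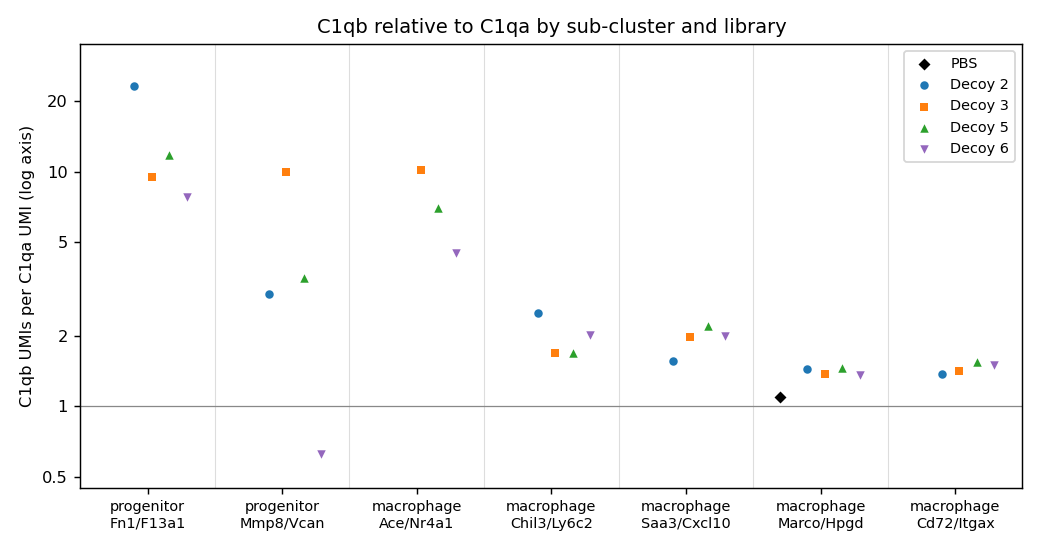
C1qb UMIs divided by C1qa UMIs (vertical axis, log axis) in 7 sub-clusters named by 2 leading genes, with 1 point per library and no point where C1qa had 3 or fewer UMIs. The Fn1/F13a1 and Ace/Nr4a1 sub-clusters lie at 4.50 or above in every library drawn, and the Marco/Hpgd and Cd72/Itgax sub-clusters at 1.54 or below.

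C3 had the opposite order of levels. Neutrophil-like cells were highest, at 346 CPM in PBS and 357, 393, 432 and 347 in Decoy 2, 3, 5 and 6. The progenitor-like class was at 215 in PBS and 158, 151, 141 and 179 in Decoy. The macrophage-like class was at 223 in PBS and 110, 114, 95.2 and 81.8 in Decoy, so PBS was above every Decoy library. Progenitor-like and macrophage-like levels did not overlap in the Decoy libraries but were close to each other in PBS. B cell-like, T cell-like, erythroid-like and mast cell and basophil-like classes were at or below 7.73. Among progenitor-like sub-clusters C3 was highest in the one led by Mmp8 and Vcan, at 383 to 422 in Decoy and 457 in PBS, and low in the one led by the primary granule genes Mpo and Elane, at 36.8 to 58.2 in 3 Decoy libraries.

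Cfb differed from both, with macrophage-like cells highest and the PBS library lowest in each of 3 myeloid classes. In macrophage-like cells it was at 198 CPM in PBS and 487, 733, 756 and 652 in Decoy 2, 3, 5 and 6. In progenitor-like cells it was at 12.6 in PBS and 87.7, 103, 123 and 124 in Decoy. In neutrophil-like cells no Cfb UMI was counted in PBS, and Decoy libraries were at 17.5, 28.8, 39.6 and 34.1. PBS was below every Decoy library in all 3 classes. Within the macrophage-like class the Cd72 and Itgax sub-cluster had the highest mean, 948 ± 253 CPM over the Decoy libraries (SD, n = 4), and the Ace and Nr4a1 sub-cluster the lowest, 292 ± 47.6 (SD, n = 3).

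The same counts were also read as the share of cells with a Cfb UMI, given as a description. In progenitor-like cells it was 25.6% in PBS (95% exact binomial interval 18.0 to 34.5, counting error only) and 73.3% to 80.0% in Decoy. Cells with at least 2000 UMIs were then thinned to 2000 UMIs each, and cells with fewer were left out. After thinning the share was 3.45% in PBS and 17.7% to 19.0% in Decoy. In macrophage-like cells it was 41.4% in PBS (29.8 to 53.8) and 66.8% to 88.5% in Decoy, or 21.2% and 55.7% to 64.4% after thinning. The macrophage-like cluster led by Marco had a median of 1641 UMIs per cell, so thinning left out many of its cells. That cluster held 28 of 70 macrophage-like cells in PBS and 79 of 196, 69 of 526, 200 of 967 and 87 of 575 in Decoy 2, 3, 5 and 6. The thinned macrophage-like shares thus rest on an unevenly cut set of cells. B cell-like cells, which are not known to make factor B, had 0.725% to 5.45% in Decoy at medians of 6163 to 9094 UMIs per cell, against medians of 35929 to 46358 in progenitor-like Decoy cells. After thinning the B cell-like share was 0% to 1.31%.

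Cfb and C1q UMIs were set against each other within each class. Per 100 C1q UMIs, macrophage-like cells had 3.78 Cfb UMIs in PBS and 9.73 to 12.4 in Decoy. B cell-like, mast cell and basophil-like and erythroid-like Decoy cells were at 4.89 to 11.8, and T cell-like ones at 5.94 to 22.6. Progenitor-like Decoy cells were at 33.1 to 97.1 and neutrophil-like Decoy cells at 37.2 to 285, both above the macrophage-like class as a whole. Within that class the Ace and Nr4a1 sub-cluster was at 57.8, 76.6 and 57.8 in Decoy 3, 5 and 6, from 64 to 185 C1q UMIs, and the other macrophage-like sub-clusters at 14.8 or less. C1q in the neutrophil-like class rested on few UMIs, 20 to 164 per Decoy library. A coarse subtraction of free RNA, scaled on markers foreign to each class, left 85.0% to 95.8% of the Decoy Cfb of progenitor-like cells. For neutrophil-like cells it left 68.8%, 26.4% and 61.2% in Decoy 2, 5 and 6 and none in Decoy 3. The part of free RNA in neutrophil-like Cfb was not tested further.

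**Figure D3:**
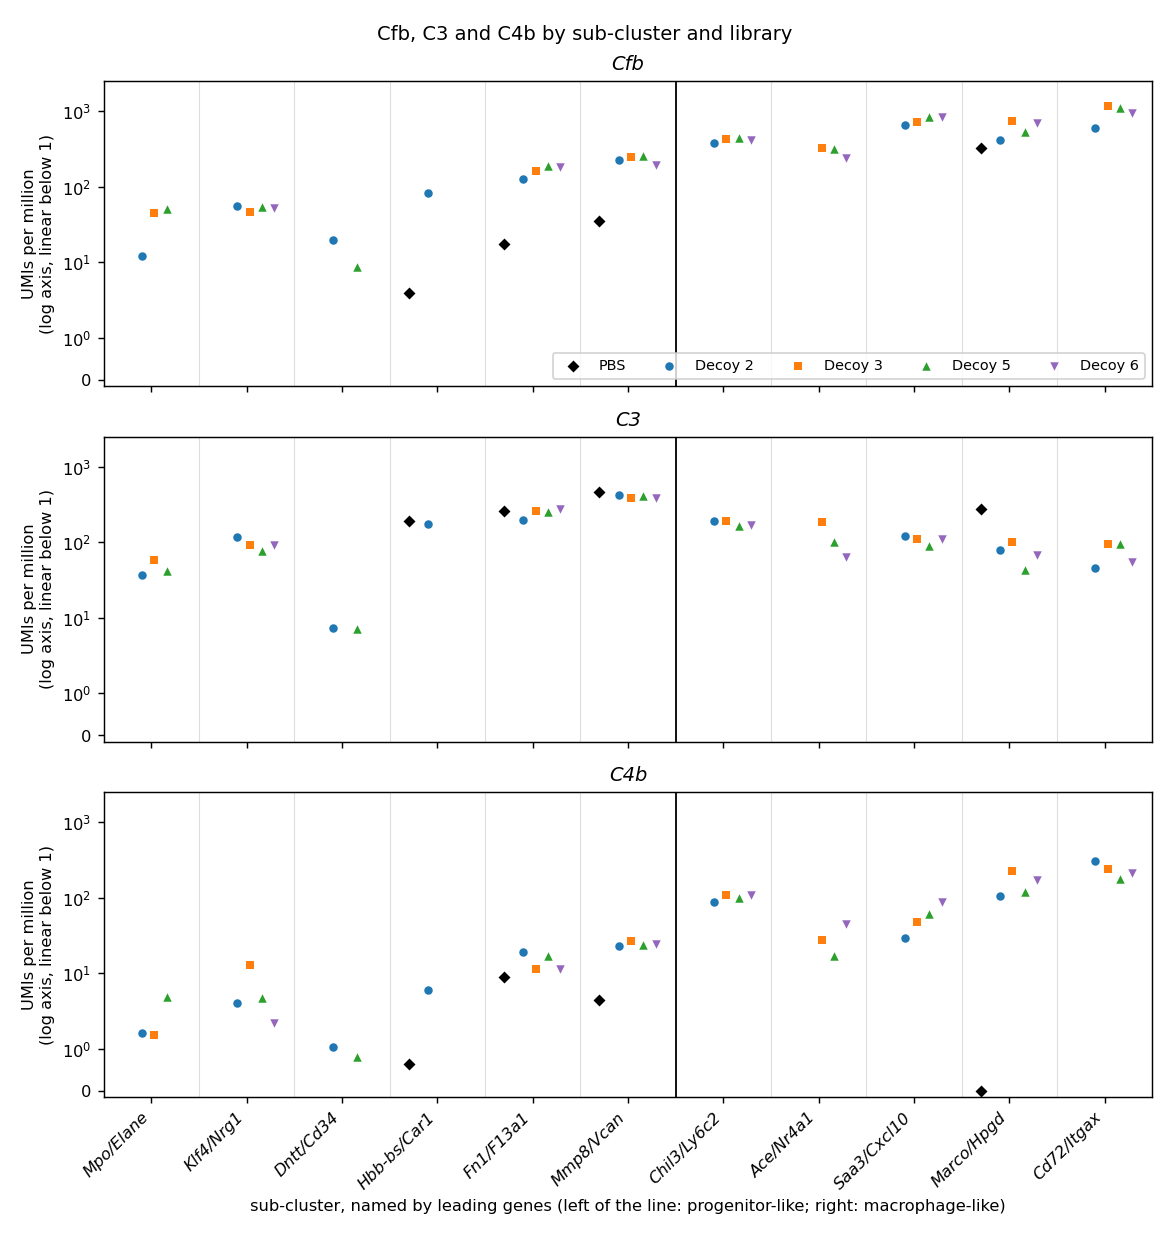
Levels of Cfb, C3 and C4b (vertical axes, CPM, log axis that is linear below 1) in 11 sub-clusters named by 2 leading genes, with 1 point per library and no point under 20 cells. In the Fn1/F13a1 and Mmp8/Vcan sub-clusters the PBS points for Cfb, 17.7 and 34.7, lie below every Decoy point, and the C3 points span 198 to 274 and 383 to 457.

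Cfp was spread over myeloid cells and B cells. Macrophage-like cells were at 302 CPM in PBS and 298, 329, 323 and 308 in Decoy, a difference smaller than the spread of the Decoy libraries. Progenitor-like cells were at 130 in PBS and 97.0, 69.9, 67.3 and 85.0 in Decoy, with PBS above every Decoy library. Neutrophil-like cells were at 63.6 in PBS, inside the Decoy range of 42.1 to 72.4. B cell-like cells were at 10.4 in PBS and 43.0, 35.2, 28.7 and 29.9 in Decoy, with PBS below every Decoy library. Plasmacytoid dendritic-type cells (a progenitor-like sub-cluster led by Siglech) had Cfp at 66.1 and no C3 UMI in Decoy 5, the 1 library with at least 20 such cells.

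C4b was highest in macrophage-like cells, at 38.5 CPM in PBS and 99.4, 137, 98.2 and 114 in Decoy 2, 3, 5 and 6. Plasma cell-like cells ranged from 0.466 to 48.1 over the Decoy libraries, and the other classes were at or below 12.9. Among macrophage-like sub-clusters the Cd72 and Itgax one was highest, at 179 to 306 in Decoy. In the Marco and Hpgd sub-cluster C4b had no UMI in PBS and was at 104 to 226 in Decoy, at least 2.97-fold higher when PBS is set to a floor of 3 UMIs. That PBS sub-cluster had 26 cells. Progenitor-like cells were at 2.93 in PBS and 8.77 to 12.9 in Decoy. Erythroid-like cells had 1 C4b UMI in PBS and 3.45 to 9.72 CPM in Decoy, 21.0 to 54.5 C4b UMIs per 100 C1q UMIs in Decoy 3, 5 and 6, against 1.61 to 2.13 in macrophage-like Decoy cells.

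C5ar1 and C3ar1 had their highest levels in different cells. C5ar1 was highest in neutrophil-like cells, at 90.9 CPM in PBS and 96.6, 101, 141 and 97.6 in Decoy. In macrophage-like cells it was at 5.31 in PBS (4 UMIs) and 44.8, 42.4, 54.9 and 40.1 in Decoy, and in progenitor-like cells at 18.5 in PBS and 11.3, 8.90, 10.3 and 12.8 in Decoy. C3ar1 was low in each class as a whole: 7.97 in PBS (6 UMIs) and 30.8, 16.8, 9.15 and 14.3 in Decoy for macrophage-like cells, and 3.60 in PBS and 0.718 to 1.57 in Decoy for progenitor-like cells. Neutrophil-like cells had no C3ar1 UMI in any library. A basophil-type sub-cluster of 22 cells, led by Prss34 and Mcpt8, had C3ar1 at 58.2 and C5ar1 at 43.7 over all libraries together. The mast cell and basophil-like class was at 0.580 for C3ar1 in PBS, yet it gave 92.3% of that library's C3ar1 UMIs because it held nearly all of its cells.

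Decoy was compared with PBS within each class by edgeR's quasi-likelihood test over all genes that passed its filter, with Benjamini-Hochberg adjustment and a threshold of 0.05. In macrophage-like cells none of the 9 genes passed, and none of 12810 genes did (0% called), while 1775 genes had an unadjusted p under 0.05 and DESeq2 called 298. C5ar1, from 4 PBS UMIs, was higher by 3.09 ± 0.47 on the log2 scale (error as SE), with an adjusted p of 0.108 in edgeR. Cfb was higher by 1.72 ± 0.29 (adjusted p = 0.111), C4b by 1.53 ± 0.29 (adjusted p = 0.124), and C3 had -1.18 ± 0.19 (adjusted p = 0.109), all in edgeR. DESeq2 called these 4 genes, in the same directions. C1qa at 0.06 ± 0.15, C1qb at 0.07 ± 0.16 and Cfp at 0.05 ± 0.11 had log2 fold changes smaller than their errors, and C1qc was at 0.47 ± 0.18 (adjusted p = 0.321 in edgeR). Without Decoy 2 edgeR called Cfb at 1.84 (adjusted p = 0.0119) and C3 at -1.22 (adjusted p = 0.0488). With clusters drawn at the finer resolution of 1.0, 925 of 13223 genes were called, among them C1qc, C5ar1, C4b, Cfb and Cfp but not C3. Without sub-clusters carrying markers of another lineage, 38 genes and none of the 9 were called.

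By plain order of levels, 6 of the 9 genes did not overlap between groups in macrophage-like cells: C1qc, Cfb, C4b, C3ar1 and C5ar1 had every Decoy library above PBS and C3 every one below. Over all genes tested there the share was 72.8%, so such an order was common. The make-up of the class differed between groups. The sub-cluster led by Ednrb, Saa3 and Cxcl10 held no PBS cell and 35, 137, 354 and 177 cells of Decoy 2, 3, 5 and 6. In the Marco and Hpgd sub-cluster, which both groups had, C3 was at 278 CPM in PBS and 77.9, 102, 43.4 and 68.7 in Decoy, and Cfb at 330 in PBS and 409, 750, 537 and 704, from 16 and 19 PBS UMIs. C5ar1 had no PBS UMI there and was at 0 to 7.28 in Decoy, next to 70.1 to 77.1 in the Saa3 and Cxcl10 sub-cluster. The part of class make-up, and of the differing macrophage and erythroid marker sums given above, in the class-wide differences was not tested beyond this.

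In neutrophil-like cells none of 8 genes tested passed in edgeR (0% of 9616 genes called, 800 with an unadjusted p under 0.05, 41 called by DESeq2). Cfb rested on no PBS UMI, and its Decoy mean of 29.97 CPM (SD 9.44, n = 4) was at least 12.1-fold higher than a PBS floor of 3 UMIs. Its edgeR adjusted p was 0.29. It was called by DESeq2 (adjusted p = 0.0289), with no filter on low counts (0.0117), without Decoy 2 (0.0428) and with doublets removed at the expected rate (0.0347). The share of neutrophil-like cells with a Cfb UMI was 0% of 66 in PBS, where a limit of 3 counts allows up to 4.55% of cells with a UMI, and 24.7% to 33.6% in Decoy. C3 had a log2 fold change of 0.40 ± 0.26 (adjusted p = 0.667 in edgeR) and C5ar1 of 0.52 ± 0.33 (adjusted p = 0.666 in edgeR), both within 2 SE of 0.

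In B cell-like cells 1 of 6 genes tested passed, where 3.47% of all genes did. Cfp rose by a log2 fold change of 1.70 ± 0.39 in edgeR (adjusted p = 0.0281), from 11 UMIs in PBS and in 4 of 4 Decoy libraries. The call was lost without Decoy 3 (adjusted p = 0.0576) and with voom (0.123). Cfb had no UMI in 197 PBS B cell-like cells. C1qa, C1qb and C1qc had adjusted p of 0.315, 0.312 and 0.300 in edgeR, with Decoy 2 at the PBS level or below it in each.

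Mast cell and basophil-like cells were compared in PBS and Decoy 2, 3 and 6. None of the 9 genes passed in edgeR, where 0.501% of genes did. All 9 had every Decoy library above PBS, where 17.5% of genes tested did, at levels of 8.52 CPM or less. Cfb was at 0.123 in PBS and 0.493, 1.10 and 2.21 in Decoy, with log2 fold change 3.40 ± 0.78 (SE) and an adjusted p of 0.113 in edgeR, and DESeq2 called it (adjusted p = 7.16e-05). Without Decoy 2 edgeR called 6 of 8 genes tested, all higher: the C1q genes, C4b, Cfb and Cfp. Per 100 C1q UMIs this class had 3.94 Cfb UMIs in PBS and 9.71, 7.73 and 11.3 in Decoy 2, 3 and 6, next to 3.78 in PBS and 9.73, 11.4 and 10.5 in macrophage-like cells of the same libraries. C4b was likewise close in PBS, at 0.775 per 100 C1q UMIs next to 0.735 in macrophage-like cells. C3ar1 was not, at 18.5 in PBS and 6.37 to 14.1 in Decoy. Macrophage-like cells of the same libraries had C3ar1 at 0.152 in PBS and 0.230 to 0.616 in Decoy. The part of free macrophage RNA in these low levels was not tested further.

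In erythroid-like cells, compared in PBS and Decoy 3, 5 and 6, C4b was the 1 gene of 6 called (log2 fold change 4.08 ± 1.25, adjusted p = 0.0352 in edgeR), where 43.4% of all genes were. It rested on 1 PBS UMI and voom did not call it (adjusted p = 0.379). PBS cells of this class were mostly haemoglobin-rich and Decoy cells mostly of a cluster with Car1 and Klf1. In that cluster alone PBS (39 cells) was at 0.734 and Decoy at 3.49 to 9.76 CPM. In T cell-like cells none of 6 genes passed in edgeR (0% of 10105 genes, 1106 with an unadjusted p under 0.05, 82 called by DESeq2), and DESeq2 called C1qb, as did edgeR without Decoy 2 (adjusted p = 0.0165).

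Over all kept cells together all 9 genes were higher in every Decoy library than in PBS, where 32.9% of genes tested were. Cfb was at 0.526 CPM in PBS and 12.1, 226, 209 and 125 in Decoy, and C1qa at 3.52 in PBS and 23.0, 529, 403 and 305. In such sums more cells of a type and more RNA per cell cannot be told apart, and Decoy libraries held more macrophage-like cells. None of the 9 passed in edgeR (0% called of 16006, 1667 with an unadjusted p under 0.05). DESeq2 called 8 of them, and so did edgeR without Decoy 2.

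In progenitor-like cells the rise of Cfb was part of how these genes were chosen, so the values there are given without a test. The Decoy mean of Cfb was 109 ± 17.4 CPM (SD, n = 4), 8.68 times the PBS level. C4b was at a mean of 11.4 ± 1.84, 3.89 times PBS. C3, Cfp, C3ar1 and C5ar1 were lower in every Decoy library, with means 0.734, 0.614, 0.310 and 0.586 times PBS. In all, 8 of the 9 genes did not overlap between groups, beside 58.6% of all genes tested in this class, and 1.01% of genes were called by edgeR there. Besides the 4 lower genes, C1qb, C1qc, Cfb and C4b were higher in every Decoy library. Of these 4, C1qb and C1qc depended on few cells, as given below, and Cfb was part of the choice. The difference in Cfb was present in both monocyte-type sub-clusters that had 20 or more PBS cells. In the Fn1 and F13a1 one, Cfb was at 17.7 in PBS and 126, 159, 190 and 185 in Decoy, while C3 was at 260 in PBS and 198, 255, 248 and 274. In the Mmp8 and Vcan one, Cfb was at 34.7 in PBS and 228, 248, 257 and 196 in Decoy, while C3 was at 457 and 422, 390, 411 and 383. Cfb was lower in the Mpo and Elane sub-cluster, at 12.3, 44.4 and 50.9 in Decoy 2, 3 and 5. With 12 PBS cells, that sub-cluster has no PBS level here. Of the 117 PBS cells of the class, 28 and 31 lay in the Fn1 and Mmp8 sub-clusters. Another 31 lay in one led by Hbb-bs, which held 26 of 211, 4 of 135, 8 of 368 and 6 of 165 Decoy cells. The part of this make-up in the class-wide values was not tested.

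The C1q genes of the progenitor-like class depended on which cells were counted. In the whole class C1qb was at 32.2 CPM in PBS and 52.5, 83.3, 160 and 177 in Decoy. Of 306 C1q UMIs in the 117 PBS cells, 2 cells gave 258 (84.3%), and in Decoy 2, 3, 5 and 6 the top 2 cells gave 38.8%, 57.6%, 14.1% and 58.4%. Cfb was spread more evenly, with 21.4% of its PBS UMIs and 6.00% to 14.0% of its Decoy UMIs in the top 2 cells. Sub-clusters led by erythroid, plasma cell, plasmacytoid dendritic or basophil markers were then left out, a choice made after seeing the data. C1qb was then at 49.99 in PBS and 31.6, 22.3, 43.3 and 42.5 in Decoy, C1qc at 24.3 in PBS and 6.67 to 16.9 in Decoy, and C1qa at 32.4 in PBS and 5.34 to 8.67 in Decoy. Those PBS values rested on 1 cell, which gave 244 of the 303 C1q UMIs left in 82 PBS cells. With the 1 cell of most C1q UMIs left out of each library, a choice also made after seeing the data, PBS was below every Decoy library for all 3 chains. C1qb was then at 16.6 in PBS and 23.8, 18.8, 37.1 and 32.3 in Decoy, from 46 PBS UMIs, and C1qa and C1qc had 6 and 7 PBS UMIs. No direction of C1q in this class is therefore given. Cfb kept its direction, at 17.6 in PBS and 85.6, 90.7, 101 and 107 in Decoy (5.47 times PBS), and C4b was at 4.22 in PBS and 8.46 to 9.51.

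**Figure D4:**
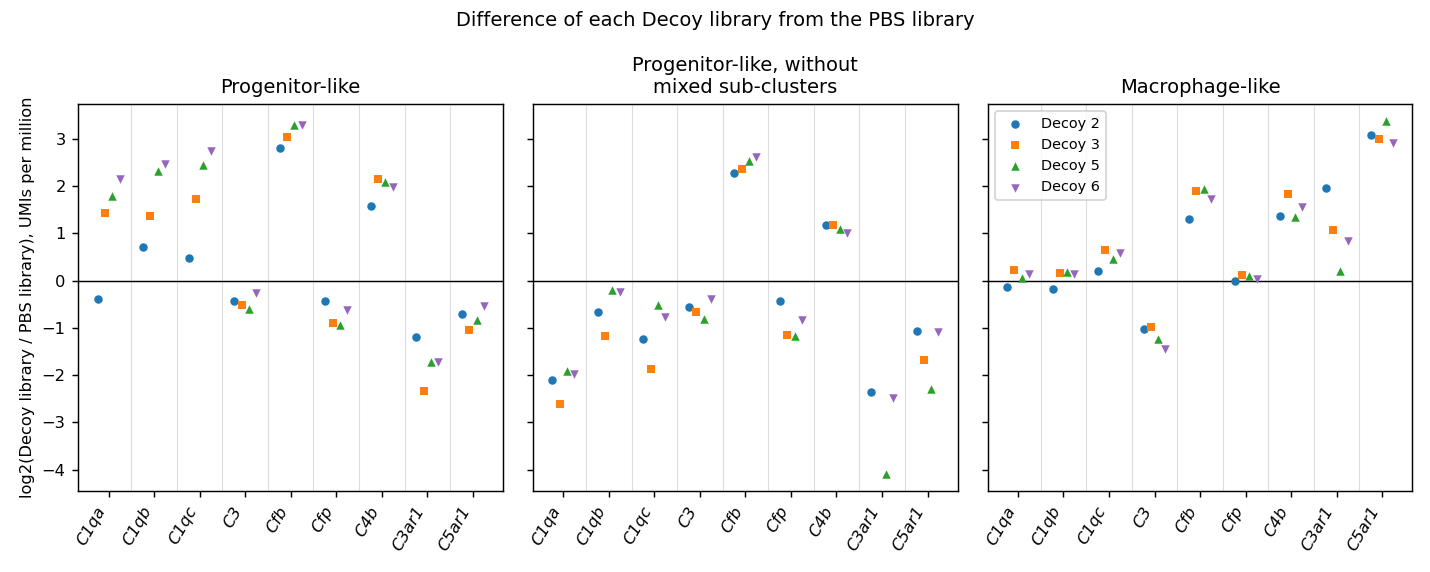
log2 ratio of each Decoy library to the PBS library (vertical axis) for the 9 complement genes in progenitor-like cells, in progenitor-like cells without mixed sub-clusters, and in macrophage-like cells, with 1 point per Decoy library and a line at no difference. Cfb and C4b lie above the line in all panels, and C3 lies below the line in each. C3ar1 of Decoy 3 had no UMI in the second panel and is not drawn.

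Markers of other cell types moved with the progenitor-like class. Its summed macrophage markers were at 294 CPM in PBS and 307, 396, 518 and 477 in Decoy, its neutrophil markers at 27245 in PBS and 15872 to 20989 in Decoy, and its stem and progenitor markers at 323 in PBS and 1152 to 1314 in Decoy. The summed macrophage markers of the neutrophil-like class were at 87.6 in PBS and 107 to 203 in Decoy, with 8 of 13 markers seen in PBS and 10 or 11 in Decoy. Their part in the member differences was not tested.

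The genes whose levels were most like those of each member were found over 45 class-by-library sums among 9900 genes, by Pearson correlation of log2(CPM + 1). These sums share libraries and depth, so the values are a description. C1qa was closest to Sdc3 (r = 0.958), Il18 (0.951) and Nr1h3 (0.945), C1qb to Nr1h3 (0.950) and C1qc to Sdc3 as well. C3 was closest to Trem3 (0.966), followed by Gpr141 and Fpr2. Cfb was closest to Saa3 (0.950), an acute phase protein gene, followed by Fcgr4 and Csf1r, and C4b was also closest to Saa3 (0.870). Cfp was closest to Tpd52 (0.946), C5ar1 to Cd300lb (0.963) and C3ar1 to Zfp703 (0.798).

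A list of 47 other complement genes was measured beside these. The 12 with the highest Decoy means are given here, and no other listed gene had a Decoy mean above 11.4 CPM in any named class. Fcnb, ficolin B of the lectin pathway, was at 576 ± 85.6 CPM in neutrophil-like Decoy cells (SD, n = 4) and 480 in PBS. Fcna, ficolin A of macrophages, was at 84.7 ± 12.8 in macrophage-like Decoy cells and 27.9 in PBS. The C3-fragment receptor chain Itgb2 was at 609 ± 50.4 in macrophage-like Decoy cells and 392 in PBS, and Itgax at 177 ± 25.1 and 137. Itgam, another partner of Itgb2, was at 314 ± 48.2 in neutrophil-like Decoy cells and 260.3 in PBS, and at 186 ± 29.0 and 71.7 in macrophage-like cells. Cr2, the receptor of C3d, was at 178 ± 22.1 in B cell-like Decoy cells and 147 in PBS. C1qbp, a C1q-binding protein, was at 596 ± 11.6 in erythroid-like Decoy cells and 155 in PBS, and Cr1l, a regulator that limits C3 deposition, at 84.9 ± 7.16 in T cell-like Decoy cells and 89.1 in PBS. Cd93 was at 40.8 ± 19.4 in macrophage-like Decoy cells and 9.30 in PBS, and C5ar2 at 13.9 ± 3.29 in neutrophil-like Decoy cells and 12.4 in PBS. The membrane regulators Cd59a and Cd55 were highest in mast cell and basophil-like cells. There Cd59a was at 228 ± 33.6 in Decoy (SD, n = 3) and 206 in PBS, and Cd55 at 134 ± 24.5 and 144.

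None of the listed genes tested passed edgeR's threshold in progenitor-like (0 of 17), macrophage-like (0 of 23), neutrophil-like (0 of 9), T cell-like (0 of 11) or mast cell and basophil-like cells (0 of 23), nor over all cells (0 of 29). In B cell-like cells 2 of 14 passed, beside 3.47% of all genes, and both fell in edgeR, while DESeq2 called Cd59a but not Cd55 (adjusted p = 0.094 in DESeq2). Cd55, which speeds the decay of convertases, was at 202 CPM in PBS and 67.6 ± 21.8 in Decoy (log2 fold change -1.53 ± 0.29, adjusted p = 0.0128 in edgeR). Cd59a, which blocks the membrane attack complex, was at 23.6 in PBS and 2.03 ± 1.04 in Decoy (log2 fold change -3.58 ± 0.56, adjusted p = 0.0036 in edgeR). Both were high in mast cell and basophil-like cells, at 144 and 206 in PBS, and mast cell-like RNA made up most of the PBS library. The part of such RNA in these 2 falls was not tested. In erythroid-like cells 7 of 13 passed, beside 43.4% of all genes: Cd55, Cd46, Cr1l, Cd59a and Clu fell and Itgb2 and C1qbp rose. PBS and Decoy cells of this class lay mostly in different clusters, as given above.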

How the data were processed

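Cells positive for GFP and c-Kit from spleen were profiled with 10x 3' v3.1 chemistry, 1 PBS and 4 Decoy libraries. The deposited values are raw UMI counts per gene and cell barcode; Cell Ranger 5.0.0 is named per the file headers, and Cell Ranger 3.1, Seurat 4, DESeq2 and mm10 per the submitters' processing notes, so the Cell Ranger version is not settled. From these counts, cells with at least 500 genes, 1000 UMIs and at most 10% mitochondrial UMIs passed. They numbered 17219 in PBS and 6252, 1941, 3607 and 3221 in Decoy 2, 3, 5 and 6. Cells marked as doublets were then removed, which left 16034, 6250, 1933, 3607 and 3216 cells. Scanpy 1.11.5 clustered them without any complement gene on 2000 variable genes and 30 components at resolution 0.5. Its doublet caller marked 6.88% of PBS cells and 0% to 0.412% of Decoy cells, where 15.5% and 1.96% to 5.49% were expected. It therefore marked fewer cells than expected in every library, with few or none in Decoy, and doublets can remain in both groups. Removal was thus uneven between the groups.

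UMIs were summed per library and class (at least 50 cells for a test, 20 for a level) and tested with edgeR 4.0.16 (R 4.3.3), quasi-likelihood, TMM scaling, filterByExpr and Benjamini-Hochberg adjustment over all genes, two-sided. Alternatives were DESeq2 1.42.0, limma 3.58.1 voom, no filter on low counts, library totals alone, doublets removed at the expected rate, resolution 1.0, each Decoy library left out, thinning and a free RNA subtraction. Leaving out mixed sub-clusters (at least 2 markers of 1 other lineage among 15 leading genes) was added after seeing the data. On simulated data with 200 genes changed 4-fold, the share recovered was 50.5% in macrophage-like, 39% in neutrophil-like, 68.5% in B cell-like, 52.5% in T cell-like, 80.5% in erythroid-like, 85% in mast cell and basophil-like and 71% in progenitor-like cells, and 0% over all cells, where the Decoy libraries differ most in make-up. The same simulations also gave false calls, which are unchanged genes that passed. There were 38 beside 170 recovered genes in mast cell and basophil-like cells and 26 beside 161 in erythroid-like cells. The other classes and all cells together had 0 to 5. Intervals are exact binomial at 95% and cover counting error only.

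The members and lists were chosen with earlier results of these data known. Named genes are the 9 members, the 12 other complement genes with the highest Decoy mean in a named class, every listed one called, and the genes nearest to each member by correlation.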

Additional observations from a re-analysis of the deposited data

Results flagged for a closer look

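Among 34 groups of 4 Decoy libraries examined, 2 held a library far from the other 3 by Dixon's criterion, where chance gives about 1 in 20. C1qb in macrophage-like cells was at 2235 CPM in Decoy 2 and 2781 to 2871 in the others (gap over range 0.859). C5ar1 in neutrophil-like cells was at 141 in Decoy 5 and 96.58 to 101 in the others (gap over range 0.899).

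Classes in which a gene had at least 10 UMIs in every library were compared for genes whose Decoy libraries all lay on one side of PBS in 1 class and on the other side in another. This held for C3, Cfp and C5ar1, and the difference between classes was not tested. C3 was higher in mast cell and basophil-like cells and lower in macrophage-like cells, a gap of 2.40 in the log2 ratio of the Decoy mean to PBS. Its mast cell and basophil-like levels were very low, at 0.398 CPM in PBS and 0.628 to 1.26 in Decoy. In macrophage-like cells C3 was at 223 in PBS and 81.8 to 114 in Decoy. The part of free RNA in the low levels was not tested. Cfp was higher in B cell-like and lower in progenitor-like cells, a gap of 2.42. C5ar1 was higher in neutrophil-like and lower in progenitor-like cells, a gap of 1.03. Below that limit in at least 1 of the classes, C3ar1 was likewise higher in macrophage-like (log2 ratio 1.16) and mast cell and basophil-like cells (0.89) and lower in progenitor-like cells (-1.69). Also below it, C5ar1 was higher in macrophage-like (3.1, from 4 PBS UMIs) and mast cell and basophil-like cells (2.66, from 7 PBS UMIs and 1 UMI in Decoy 3). These classes share the 1 PBS library.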

How the results depend on the processing

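No paired analysis was possible because the single PBS library carries no replicate number. DESeq2 called 82 genes in T cell-like, 2029 over all cells, 421 in progenitor-like, 298 in macrophage-like, 272 in mast cell and basophil-like and 41 in neutrophil-like cells. Without a filter the counts were 850 in B cell-like, 13 in T cell-like, 240, 51, 580 and 19 in the last 4 classes. Voom gave 59 in progenitor-like and 232 in mast cell and basophil-like cells, library totals 8289 in erythroid-like cells. Removing doublets gave 27 in T cell-like, 265 in progenitor-like and 22 in neutrophil-like cells. Resolution 1.0 gave 925 in macrophage-like cells, and leaving out mixed sub-clusters 38 there and 291 in progenitor-like cells.

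Of the 9 members, DESeq2 called 1 in T cell-like, 8 over all cells, 4 in macrophage-like, 2 in mast cell and basophil-like and 1 in neutrophil-like cells. Without a filter it was 5 in B cell-like, 3 in macrophage-like, 5 in mast cell and basophil-like and 1 in neutrophil-like cells. Voom called 0 in B cell-like and 0 in erythroid-like cells, library totals 5 in erythroid-like, resolution 1.0 5 in macrophage-like and doublet removal 1 in neutrophil-like cells. Of other complement genes, DESeq2 called 1 in B cell-like, 10 over all cells, 3 in macrophage-like and 1 in mast cell and basophil-like cells, resolution 1.0 5 in macrophage-like, and no filter 3 and voom 1 in mast cell and basophil-like cells.

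Leaving out 1 Decoy library gave 203 to 491 called genes in B cell-like, 0 to 102 in T cell-like, 0 to 2474 over all, 4402 to 4827 in erythroid-like, 0 to 415 in progenitor-like (415 without Decoy 2, 0 without Decoy 6), 0 to 190 in macrophage-like, 136 to 560 in mast cell and basophil-like and 0 to 3 in neutrophil-like cells. Members called ranged from 0 to 1 in B cell-like, T cell-like and neutrophil-like cells, 0 to 8 over all, 0 to 2 in macrophage-like and 0 to 6 in mast cell and basophil-like cells, and were 1 in erythroid-like cells throughout. Other complement genes called were 2 in B cell-like throughout, 0 to 1 in T cell-like and progenitor-like, 0 to 11 over all, 7 to 9 in erythroid-like, 0 to 2 in macrophage-like and mast cell and basophil-like and 0 in neutrophil-like cells.

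The log2 fold change of C3 in T cell-like cells turned to -0.15 with voom and -0.08 with doublets removed. That of Cfp in erythroid-like cells turned to 0.02 without a filter, 1.08 with library totals, and 1.44 with doublets removed, and ranged from -0.25 to 0.04 with 1 Decoy library left out (0.04 without Decoy 3). In neutrophil-like cells it turned to -0.12 with library totals and ranged from -0.04 (without Decoy 5) to 0.29 with 1 library left out. Library totals moved the median of all genes in erythroid-like cells from 0.06 to 1.24 and in neutrophil-like cells from 0.02 to -0.23. The cause of the other changes was not tested. The neutrophil-like and macrophage-like classes had 66 and 70 PBS cells, and C1qa, C1qc, Cfb, C4b and C3ar1 had no PBS UMI in the first.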
